A study of Homo sapiens with 8 samples.

Results

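The genes that make, store, take up and degrade catecholamines were followed in 2 human neuroblastoma cell lines with and without knockdown of TRPM7, an ion channel fused to a kinase. The set held 9 genes of the 31426 named on the array, TH, DDC, DBH, PNMT, GCH1, SLC18A1, SLC18A2, SLC6A2 and MAOA, and its probes were found by gene symbol; the set was proposed with earlier results of these data known. It was represented by 13 of the 47322 probes of the array, with 3 probes for GCH1, 2 each for TH and SLC18A1, and 1 for each of the other genes. SH-SY5Y is a neuroblast-like (N-type) line and SH-EP2 an epithelial-like (S-type) line, and both are subclones of the SK-N-SH neuroblastoma line. Cells of each line were transduced with a lentivirus that carried either a nonfunctional shRNA (control) or an shRNA against TRPM7. The knockdown cells were stable lines made with a single TRPM7 shRNA construct, so a property of that construct and of TRPM7 loss cannot be told apart. Each of the 4 groups was hybridised on 2 Illumina arrays, 8 in all. The sources used here do not say whether the 2 arrays of a group came from separate cultures, so p-values measure only the spread between these samples, which may be technical.

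Catecholamines are built from tyrosine in steps. Tyrosine hydroxylase (TH) makes L-DOPA and uses tetrahydrobiopterin, whose synthesis begins with GTP cyclohydrolase (GCH1). Aromatic L-amino acid decarboxylase (DDC) then gives dopamine, dopamine beta-hydroxylase (DBH) converts dopamine to noradrenaline inside vesicles, and phenylethanolamine N-methyltransferase (PNMT) makes adrenaline. The vesicular monoamine transporters SLC18A1 (VMAT1) and SLC18A2 (VMAT2) load vesicles, the noradrenaline transporter SLC6A2 (NET) returns noradrenaline to the cell, and monoamine oxidase A (MAOA) oxidises it. Neuroblastoma arises from the sympathoadrenal lineage of the neural crest, and catecholamine metabolites are a long-used clinical marker of the tumour.

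The upstream sequences of DBH and DDC are shown because DBH was the member that changed in SH-SY5Y and because both genes were measured in SH-SY5Y and not above background in SH-EP2, and that of MAOA because it was the member that changed in SH-EP2. Each is the 250 bases before a RefSeq start site in GRCh38.p14, printed 5′ to 3′ on the strand of the gene. DBH lies on chromosome 9 at positions 133636363 to 133659329, and its window is chr9:133636113-133636362 on the plus strand. The DDC window is chr7:50561072-50561321 on the minus strand, the more downstream of 2 DDC starts in the table. The MAOA window is chrX:43656049-43656298 on the plus strand. MAOA lies on chromosome X at positions 43655006 to 43746817, so its window is inside the annotated gene, before an internal start. Capitals mark ATTA, the core bound by homeodomain proteins such as PHOX2A, and TGACG, the half-site of a cAMP response element, on either strand.
DBH: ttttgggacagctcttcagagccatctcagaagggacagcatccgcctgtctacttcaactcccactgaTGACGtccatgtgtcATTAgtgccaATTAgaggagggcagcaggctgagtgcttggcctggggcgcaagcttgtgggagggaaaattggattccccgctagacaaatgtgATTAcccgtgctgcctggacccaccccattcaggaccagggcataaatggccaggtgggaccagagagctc
DDC: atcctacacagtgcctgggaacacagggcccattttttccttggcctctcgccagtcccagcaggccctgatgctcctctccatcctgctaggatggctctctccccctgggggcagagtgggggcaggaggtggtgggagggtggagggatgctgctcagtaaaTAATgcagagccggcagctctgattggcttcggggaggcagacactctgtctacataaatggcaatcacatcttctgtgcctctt
MAOA: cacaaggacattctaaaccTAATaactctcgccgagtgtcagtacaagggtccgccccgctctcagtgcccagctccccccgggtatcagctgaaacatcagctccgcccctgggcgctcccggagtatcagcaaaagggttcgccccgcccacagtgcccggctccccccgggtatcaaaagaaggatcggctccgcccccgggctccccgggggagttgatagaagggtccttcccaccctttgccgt

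The DBH window held 3 matches to ATTA, beginning 166, 156 and 71 bases before the start, and 1 match to TGACG at 181 bases. Among the 35116 promoter windows of 250 bases in the same table, 47.4% held ATTA and 21.2% held TGACG. The DDC window held 1 match to ATTA, 85 bases before the start, and no TGACG. The other DDC start had 4 matches to ATTA and also no TGACG. The MAOA window held 1 match to ATTA, 231 bases before the start, no TGACG, and 4 matches each to GGGCGG (the GC box, in 42.6% of all windows) and to GATA (in 45.6%). For the E-box CANNTG, in 61.8% of all windows, DBH had 3 matches, the downstream DDC start none and MAOA 1, the last of which overlapped a GATA match. None of the matches to ATTA or TGACG in these windows overlapped a match to another motif searched. The window of SLC18A2, which was not detected on any array, held no ATTA, 2 overlapping matches to TGACG read on opposite strands, and 3 to GGGCGG. These matches describe letters and say nothing of binding. Sequence for the other members is not shown here.

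The arrays had median signals of 105 to 120 with 40.8% to 44.2% of probes detected (detection p under 0.05, the scanner software's comparison with negative control probes). All 11 neuroblastic markers checked, among them PHOX2A, GATA3 and CHGA, were detected on every SH-SY5Y array and 5 to 7 of them on SH-EP2 arrays. All 12 mesenchymal markers, among them VIM, FN1 and COL1A1, were detected on every SH-EP2 array. On SH-SY5Y arrays 6 of them were, VIM and COL1A1 included. By the test described below, 11 of the 12 were lower in SH-SY5Y than in SH-EP2 control cells. VIM was higher, at a log2 level of 13.68 against 13.48. Of 8 Schwann cell markers, 1 to 3 were detected on an array. The single TRPM7 probe was detected on 0 of 8 arrays, so these data hold no check of the knockdown itself. Levels below are log2 of the background-corrected, quantile-normalized signal; they compare arrays for 1 probe and not 1 probe with another. The lead probe of a gene is the one with the highest mean log2 level over all arrays. Tests are from limma fitted to all probes and groups, with p adjusted by the Benjamini-Hochberg method over all 47322 probes, and a difference is called where the adjusted p is under 0.05. The spread given for a group of 2 arrays is the SD. Where the values of 2 groups are said not to overlap or to lie apart, this describes the points only. How many of all probes separate in this way was not counted, and with 2 arrays a group such separation is not a test.

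The question the 2 control groups answer is which steps of the pathway each line expressed. In SH-SY5Y control cells 6 of the 9 genes were detected on both arrays: DDC, DBH, GCH1, SLC18A1, SLC6A2 and MAOA. In SH-EP2 control cells only MAOA was. The lead probes of all 6 were higher in SH-SY5Y, and none of the 9 genes was called higher in SH-EP2. Counted by probe, 9 of 13 were called higher in SH-SY5Y, against a background of 26.2% of all probes called in either direction and of 60.7% of the probes detected on all 4 SH-SY5Y arrays. All 9 member probes detected on those 4 arrays were among the 9 called. Those probes were picked by detection in the line where they are higher, so this count is not separate support for a line difference. GCH1 and SLC18A1 each enter it by more than 1 probe. The median log2 difference over the 9 lead probes was 4.59, and over the lead probes of all 31426 genes it was 0.02. The direction and the call held under every alternative for the 6 genes, but the size rested on the background step, since the SH-EP2 side was at or near background. With no background correction the log2 differences were 5.95 for DBH, 3.47 for DDC, 2.03 for GCH1, 1.99 for MAOA, 1.54 for SLC18A1 and 1.24 for SLC6A2, against 10.86, 8.46, 5.21, 4.59, 4.82 and 4.50 with it, and neqc gave values between (8.31, 5.72, 3.74, 3.48, 3.19 and 2.83). The folds and bounds below hold for the background correction used here and are larger than these settings give.

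**Figure D1:**
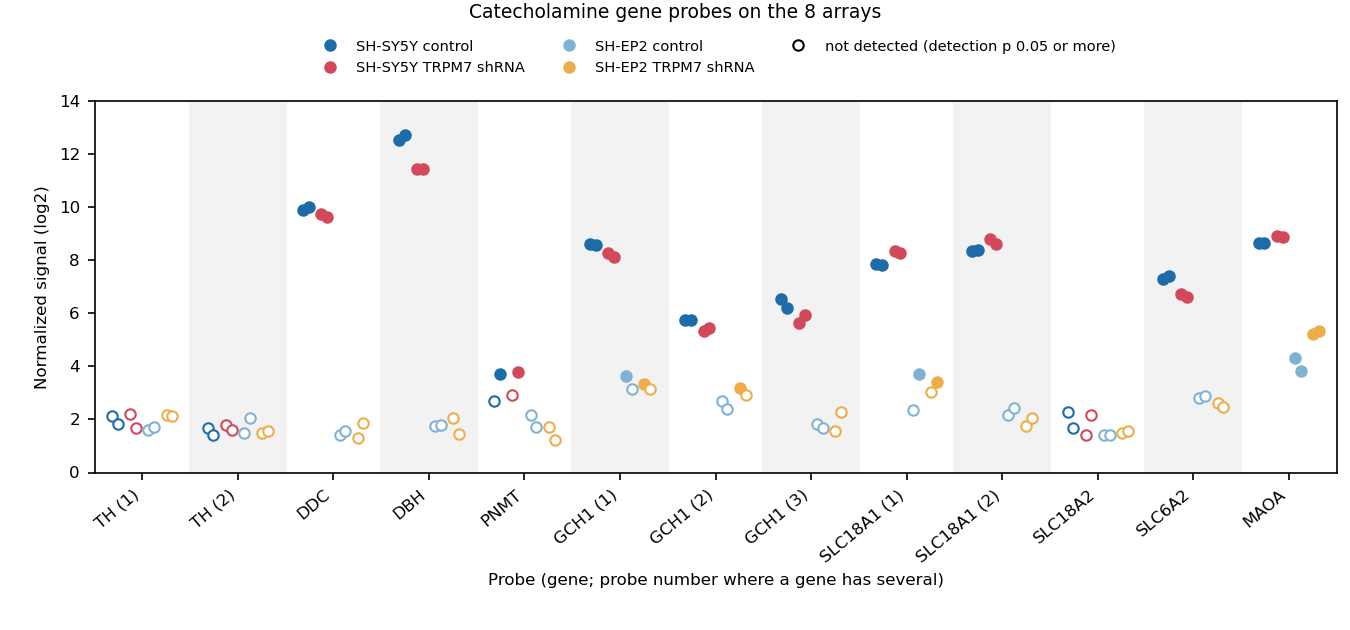
Normalized signal (log2, vertical axis) of each of the 13 probes (horizontal axis) on the 8 arrays, coloured by group; filled points were detected and open points were not. DDC, DBH, GCH1, SLC18A1, SLC6A2 and MAOA lie well above the SH-EP2 points in SH-SY5Y, the 2 TH probes and SLC18A2 are open on every array, and the DBH points of SH-SY5Y TRPM7 shRNA cells lie below those of the controls.

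Among the synthesis enzymes, TH, the rate-limiting step, was not detected on any array by either probe. The lead TH probe read 2.11 and 1.82 in SH-SY5Y control cells, 2.19 and 1.68 in SH-SY5Y TRPM7 shRNA cells, 1.59 and 1.70 in SH-EP2 control cells, and 2.17 and 2.13 in SH-EP2 TRPM7 shRNA cells. The second probe lay between 1.41 and 2.05 on the 8 arrays. These are background readings, so no fold change is given for TH, and a transcript below the limit of these 2 probes cannot be told from none. TPH1 and TPH2, related hydroxylases that use the same cofactor, were not detected on any array, and neither was called in any comparison.

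DDC, which follows TH, read 9.88 and 10.01 in SH-SY5Y control cells (mean 9.95 ± 0.09, SD, n = 2) and 9.72 and 9.63 in SH-SY5Y TRPM7 shRNA cells (9.67 ± 0.06). In SH-EP2 it was not well above background, at 1.31 to 1.87 on the 4 arrays. The DDC level was at least 105-fold higher in SH-SY5Y control than in SH-EP2 control cells (adjusted p = 2.48e-16, limma). Such a bound sets the mean of the brighter group against, on each dim array, the lowest level of any detected probe or the probe's own level where that was higher. In bulk RNA, fewer cells of a type and less RNA per cell cannot be told apart.

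With TRPM7 shRNA the 2 DDC values in SH-SY5Y lay below both controls, but by less than the test could resolve. The log2 fold change was -0.27 ± 0.24 (SE), with a 95% confidence interval of -0.76 to 0.22 and an adjusted p = 0.762. It was not called under any of the 18 alternatives tried.

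DBH, the enzyme that makes noradrenaline, was the member with the change in SH-SY5Y. Its probe (ILMN_1746220) gave deposited signals of 6734 and 5781 on the 2 control arrays and 2883 and 3181 on the 2 TRPM7 shRNA arrays. After normalization the control arrays read 12.53 and 12.71 (12.62 ± 0.12) and the TRPM7 shRNA arrays 11.43 and 11.42 (11.43 ± 0.004), and the groups did not overlap. The log2 fold change was -1.20 ± 0.18 (SE; 95% confidence interval -1.58 to -0.81), so that the level in control cells was 2.29-fold that in TRPM7 shRNA cells (adjusted p = 0.000637, limma). DBH was 1 of 13 member probes called in this comparison, against 2.11% of all probes and 5.19% of the probes detected on all 4 SH-SY5Y arrays. The median log2 fold change of the 9 lead probes was -0.21, and over all genes it was 0.003.

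The fall in DBH held in 17 of 18 alternatives, with log2 fold changes of -1.28 to -1.10. Some of these settings could barely move it. DBH has 1 probe, so averaging probes left its log2 fold change as it was, and the fits without an SH-EP2 array gave -1.21 to -1.20. The fall was not called when the intensity trend was left out of the variance model (adjusted p = 0.174, limma). Under that setting 64 probes were called in place of 999. Without SH-SY5Y control replicate 2, the higher control after normalization, the adjusted p was 0.0486. The fall was seen in earlier results of these data, from which the gene set was proposed, and it is not independent support for them.

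In SH-EP2 DBH was not well above background on any array, with levels of 1.73 and 1.79 in control and 2.05 and 1.46 in TRPM7 shRNA cells. It was at least 672-fold higher in SH-SY5Y control than in SH-EP2 control cells (adjusted p = 1.45e-19, limma). No response of DBH could be measured in SH-EP2, so the contrast between the shRNA effects of the 2 lines, -1.19 ± 0.26 on the log2 scale (adjusted p = 0.0216), restates the fall in SH-SY5Y against background readings and does not show a response that differs. DBH was the only 1 of 13 member probes called in that contrast, against 1.4% of all probes. That call was lost in 7 of 17 alternatives: without any single SH-SY5Y array (adjusted p = 0.0801 to 0.182), without SH-EP2 TRPM7 shRNA replicate 1 (log2 difference -0.91, adjusted p = 0.0833), with median scaling (adjusted p = 0.0706) and without the intensity trend (adjusted p = 0.351).

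PNMT, the adrenaline-forming enzyme, was at the edge of detection. It was detected on 1 of the 2 arrays of each SH-SY5Y group and on none of SH-EP2. Its levels were 2.71 and 3.71 in SH-SY5Y control, 2.91 and 3.77 in SH-SY5Y TRPM7 shRNA, 2.17 and 1.72 in SH-EP2 control, and 1.73 and 1.23 in SH-EP2 TRPM7 shRNA cells. The SH-SY5Y shRNA and control values overlapped (adjusted p = 0.962), and the difference between the control groups of the 2 lines was not called (adjusted p = 0.0616), although 5 of 17 alternatives did call it.

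GCH1, which starts tetrahydrobiopterin synthesis, was read by 3 probes that gave the same direction in SH-SY5Y. The lead probe (ILMN_1812759) read 8.61 and 8.57 in control and 8.25 and 8.14 in TRPM7 shRNA cells, the second 5.75 and 5.76 against 5.33 and 5.43, and the third 6.52 and 6.19 against 5.63 and 5.94. On each probe both TRPM7 shRNA values lay below both controls, a separation that was not counted over all probes. None passed the test: the log2 fold changes were -0.39, -0.37 and -0.57, and the lead probe had a 95% confidence interval of -0.86 to 0.07 (adjusted p = 0.553). In SH-EP2 control cells the lead probe was detected on 1 of 2 arrays (3.63 and 3.13), and the line difference was 5.21 ± 0.22 on the log2 scale (adjusted p = 1.88e-13). For the other probes, not well above background in SH-EP2 control cells, SH-SY5Y was at least 5.76-fold and at least 8.73-fold higher.

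The vesicular transporters differed in detection. SLC18A2 (VMAT2), the form typical of neurons, stayed undetected throughout and ranged from 1.40 to 2.29. A transcript below the limit of its only probe cannot be told from none. SLC18A1 (VMAT1), the form typical of chromaffin cells, was detected on every SH-SY5Y array by both of its probes. Its lead probe read 7.85 and 7.83 in SH-SY5Y control and 8.34 and 8.27 in SH-SY5Y TRPM7 shRNA cells, and the second probe 8.33 and 8.40 against 8.80 and 8.59. Both probes were thus higher in both TRPM7 shRNA arrays than in either control array, with log2 fold changes of 0.46 ± 0.32 (95% confidence interval -0.21 to 1.13, adjusted p = 0.662) and 0.34 ± 0.25 (-0.19 to 0.86, adjusted p = 0.694). Neither passed the test. In SH-EP2 the lead probe was detected on 1 array of each group and the second on none, and SH-SY5Y control cells were at least 35.1-fold above SH-EP2 control cells by the second probe (adjusted p = 1.04e-13).

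SLC6A2 (NET), which takes noradrenaline back up, read 7.28 and 7.41 in SH-SY5Y control and 6.74 and 6.59 in SH-SY5Y TRPM7 shRNA cells. The groups did not overlap, and the log2 fold change of -0.67 ± 0.28 had a 95% confidence interval of -1.26 to -0.09, but it did not pass the test over all probes (adjusted p = 0.329). It did pass with an offset of 50 added after background correction and with no background correction, as did the lead SLC18A1 probe in the opposite direction; GCH1 passed with no background correction alone. In SH-EP2 SLC6A2 was not well above background (2.48 to 2.88 on the 4 arrays), and SH-SY5Y control cells were at least 17.3-fold higher (adjusted p = 6.59e-11).

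MAOA, the degrading enzyme, was the member detected on all 8 arrays and the one that changed in SH-EP2. Its probe (ILMN_1663640) read 4.31 and 3.82 in SH-EP2 control cells (4.06 ± 0.34) and 5.20 and 5.35 in SH-EP2 TRPM7 shRNA cells (5.27 ± 0.10), and both TRPM7 shRNA values were above both controls. MAOA rose by 1.21 ± 0.18 on the log2 scale (95% confidence interval 0.83 to 1.59, adjusted p = 0.000408, limma), a 2.31-fold change. It was the only 1 of 13 member probes called in SH-EP2, against 3.02% of all probes. The deposited signals were dim, at 136 and 125 in control and 153 and 155 in TRPM7 shRNA cells, where the estimated background of the SH-EP2 control arrays was 107 to 110. The size of the change therefore depended on the background step: with no background correction the log2 fold change was 0.23 and was not called (adjusted p = 0.104), and it was not called without the intensity trend (adjusted p = 0.105).

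In SH-SY5Y MAOA was brighter, at 8.65 on both control arrays and 8.91 and 8.89 on the TRPM7 shRNA arrays. The log2 fold change there was 0.25 ± 0.18 (95% confidence interval -0.13 to 0.63, adjusted p = 0.685). The difference between the lines in shRNA effect was -0.96 ± 0.26 and was not called (adjusted p = 0.0794), so the rise was not shown to differ between them. Its size rested on the background step: it was -0.43 with neqc, -0.12 with an offset of 50 and -0.029 with no background correction. None of these was called. Leaving out SH-EP2 control replicate 1 brought that difference to -1.22. Control cells of SH-SY5Y were 24.0-fold above those of SH-EP2 (log2 difference 4.59 ± 0.18, adjusted p = 5.88e-14).

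**Figure D2:**
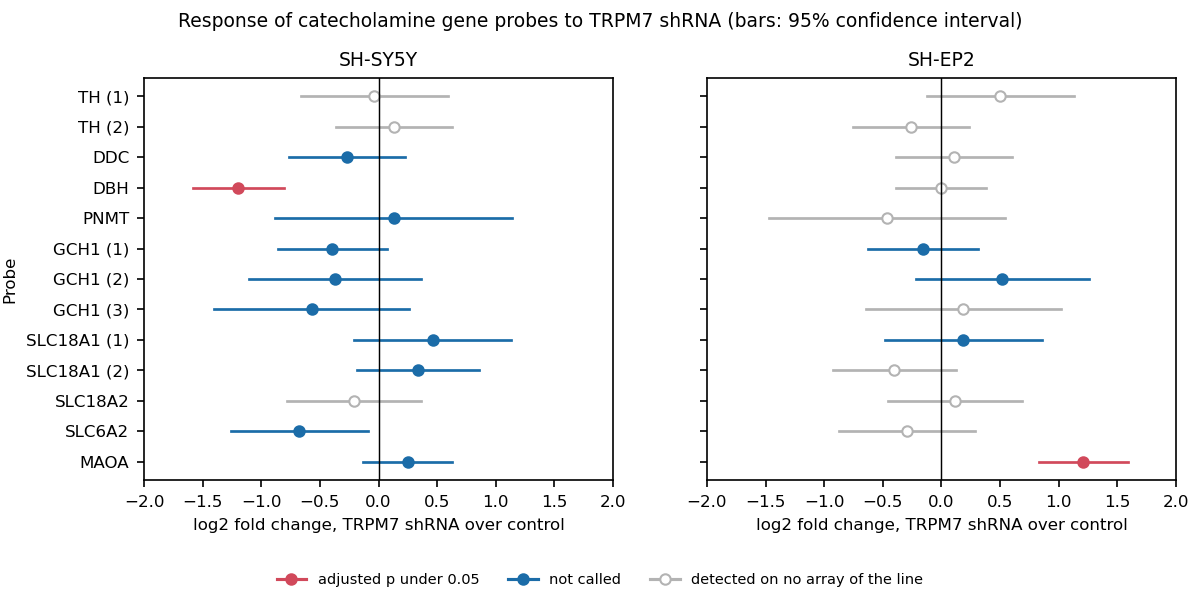
Log2 fold change of TRPM7 shRNA over control (horizontal axis) with its 95% confidence interval for the 13 probes (vertical axis) in SH-SY5Y (left) and SH-EP2 (right); grey open points were detected on no array of that line. DBH at -1.20 in SH-SY5Y and MAOA at 1.21 in SH-EP2 are the called probes, and in SH-SY5Y the GCH1 and SLC6A2 points lie left of 0 and the SLC18A1 and MAOA points right of 0 without passing the test.

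The probes whose levels over the 8 arrays were most like those of DBH, among 16516 probes with a symbol that were detected on all 4 SH-SY5Y arrays, were those of KIAA1712, RTN1, MMD, SYT4 and BCCIP, with Pearson r of 0.9991 to 0.9996. These values describe 8 points that fall in 2 clusters, 1 per line, and no test is attached. The TRPM7 shRNA arrays were among the 8, so a fall in SH-SY5Y like that of DBH was part of what the ranking picked. The shRNA changes of these probes are therefore not separate support. Of the 5, SYT4, a synaptotagmin of dense-core vesicles, had the shRNA response nearest in size. It read 12.88 in SH-SY5Y control and 11.82 in TRPM7 shRNA cells (log2 fold change -1.06). KIAA1712 fell by 0.40, and for the other 3 the log2 fold changes were -0.61, -0.26 and -0.30. For TH no such list was made, since TH was not detected.

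The genes around the pathway were taken from 8 lists by lead probe, 73 genes in all, and the counts below can be set against 2.57% of all genes called in SH-SY5Y and 3.67% in SH-EP2. In tetrahydrobiopterin synthesis and recycling, 1 of 7 genes rose in SH-SY5Y and none changed in SH-EP2. The gene was QDPR, dihydropteridine reductase, which regenerates the cofactor used by TH. QDPR went from 10.56 ± 0.04 in control to 11.24 ± 0.08 in TRPM7 shRNA cells (log2 fold change 0.68 ± 0.09, adjusted p = 8.84e-05), and the difference between the lines was called too (0.71 ± 0.12, adjusted p = 0.00303). PTS and SPR, the enzymes between GCH1 and the finished cofactor, had log2 fold changes of 0.26 and 0.21 in SH-SY5Y that were not called.

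Of 6 other breakdown enzymes, 1 rose in each line and none fell. MAOB, the second monoamine oxidase, was not detected on either SH-SY5Y control array (2.71 ± 0.38) and was detected on both TRPM7 shRNA arrays (5.21 ± 0.19), a rise of at least 4.14-fold (adjusted p = 0.0079, limma). That call was lost without SH-SY5Y control replicate 1, without either SH-SY5Y TRPM7 shRNA replicate, and without the intensity trend. The size of the rise also rested on the background step: the log2 fold change was 2.50 here, 1.23 with neqc, 0.58 with an offset of 50 and 0.39 with no background correction, the last 3 below the bound. MAOB was not detected in SH-EP2. AKR1B1, an aldose reductase, rose by 0.34 in SH-EP2 (adjusted p = 0.0192), a call lost without SH-EP2 control replicate 1 (0.27, adjusted p = 0.262), without SH-EP2 TRPM7 shRNA replicate 2 (0.27, adjusted p = 0.278), with median scaling and without the intensity trend.

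Of 7 other monoamine transporters, 1 fell in SH-SY5Y. It was SLC29A4, a low-affinity plasma membrane monoamine transporter, at 10.13 ± 0.09 in control and 9.70 ± 0.04 in TRPM7 shRNA cells (log2 fold change -0.43, adjusted p = 0.0229). Its second probe gave 0.08 (adjusted p = 0.977), and the mean over both probes was not called. The call of the lead probe was lost in 7 of 18 alternatives, among them the fits without SH-SY5Y control replicate 1 (-0.36), without SH-SY5Y TRPM7 shRNA replicate 1 (-0.40) and without SH-SY5Y TRPM7 shRNA replicate 2 (-0.46). The dopamine and serotonin transporters SLC6A3 and SLC6A4 were not detected on any array. None of 14 adrenergic and dopamine receptors was called in either line, and 3 of them in SH-SY5Y and 4 in SH-EP2 were detected on all 4 arrays of the line.

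Of 15 chromaffin granule and dense-core vesicle genes, 12 were detected on all 4 SH-SY5Y arrays. In SH-SY5Y control cells 10 were higher than in SH-EP2 control cells and 1 was lower (ATP6AP1, a proton pump subunit). In that comparison 30.1% of all genes were called, and 60.7% of the probes detected on all 4 SH-SY5Y arrays. None of the 15 was called with TRPM7 shRNA in SH-SY5Y, where the median log2 fold change was 0.03. CHGA, chromogranin A, read 11.25 in control and 11.24 in TRPM7 shRNA cells, and CYB561, the vesicle cytochrome that supplies DBH with electrons, 11.39 and 11.49; these examples were picked after their values were seen. In SH-EP2 CHGB, chromogranin B, went from 3.53 ± 0.29 to 4.54 ± 0.67 (log2 fold change 1.01, adjusted p = 0.011) at levels close to background; with no background correction the change was 0.15, and 8 of 18 alternatives lost the call. CHGA was also called in SH-EP2 but was not detected there on any array.

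Of 8 transcription factors of the sympathoadrenal lineage, 7 were detected on all 4 SH-SY5Y arrays and 7 were higher in SH-SY5Y control cells. This stands against the same 30.1% of all genes called, and 60.7% of the probes detected on all 4 SH-SY5Y arrays. With TRPM7 shRNA in SH-SY5Y, ISL1, a LIM-homeodomain factor, fell by 0.45 on the log2 scale (12.68 ± 0.01 to 12.23 ± 0.09, adjusted p = 0.0144), and the difference between the lines was called (-0.63 ± 0.14, adjusted p = 0.0224). The fall of ISL1 was not called in 5 of 18 alternatives, namely after leaving out either SH-SY5Y control replicate or SH-SY5Y TRPM7 shRNA replicate 2, under median scaling, and in the fit that ignores the intensity trend. None of the other factors was called there. PHOX2A, a homeodomain factor, gave -0.72 ± 0.27 (adjusted p = 0.244) and TFAP2B -0.67 ± 0.21 (adjusted p = 0.137). INSM1, near background, gave -0.58 and GATA2 -0.24, while HAND1 gave -0.05, HAND2 -0.008 and GATA3 0.35. A part of these factors in the DBH result was not tested. PHOX2A was undetected in SH-EP2. In that line GATA2 fell by 0.78 (5.46 ± 0.01 to 4.68 ± 0.48, adjusted p = 0.0171), a call that 7 of 18 alternatives lost and a change of -0.17 with no background correction.

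Of 14 regulators of TH activity, 1 fell in SH-SY5Y and 1 rose in SH-EP2. PRKACB, a catalytic subunit of protein kinase A, gave -1.24 ± 0.29 by its lead probe in SH-SY5Y (adjusted p = 0.0255), but the other detected PRKACB probe gave 0.41 (adjusted p = 0.763), and the mean over its probes gave 0.01. DNAJC12, a co-chaperone of the aromatic amino acid hydroxylases, rose in SH-EP2 from 8.05 ± 0.05 to 8.87 ± 0.06 (0.81 ± 0.10, adjusted p = 5.82e-05), and 3 of its 4 probes were called.

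**Figure D3:**
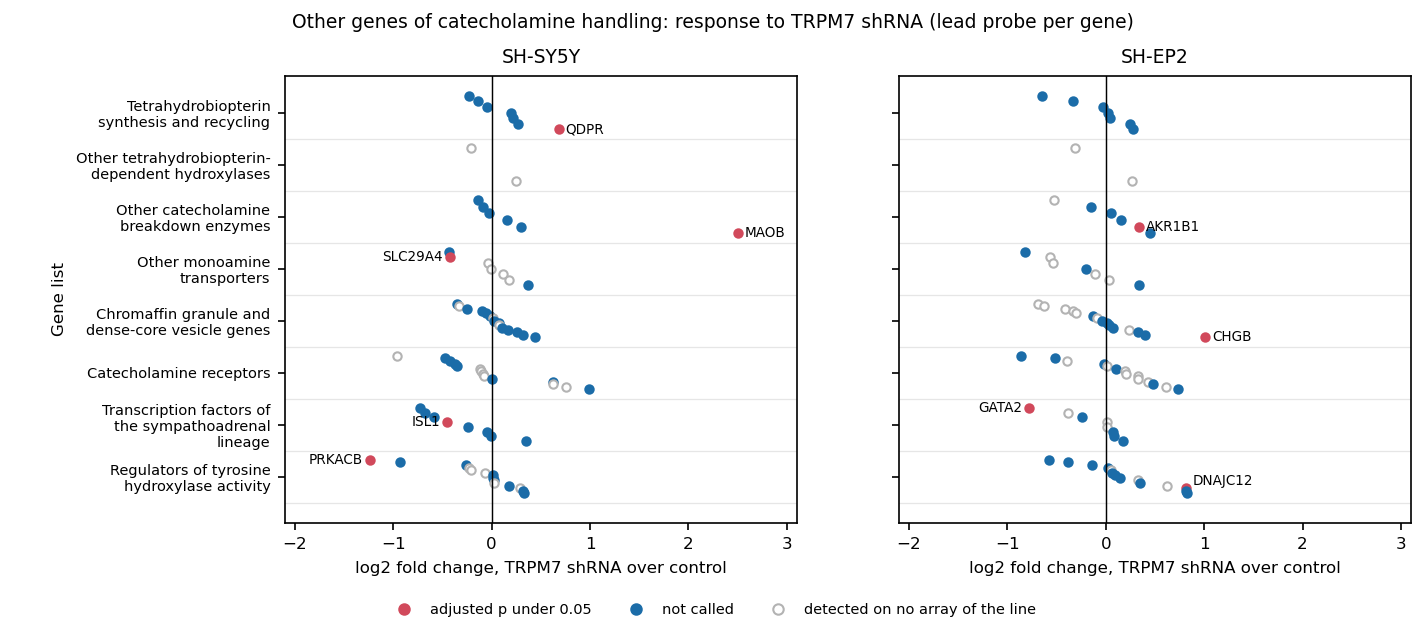
Log2 fold change of TRPM7 shRNA over control (horizontal axis) for the lead probe of each gene in 8 lists around the catecholamine pathway (vertical axis), in SH-SY5Y (left) and SH-EP2 (right); red points had an adjusted p under 0.05, and grey open points were detected on no array of that line. QDPR and MAOB lie to the right and PRKACB to the left in SH-SY5Y, DNAJC12 and CHGB lie to the right in SH-EP2, and most other genes lie near 0.

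The marker lists were read beside the member results. In SH-SY5Y 2 of 11 neuroblastic markers fell (ISL1 and STMN2) and none rose, with a median array level of 10.13 and 10.01 in control and 10.12 and 10.20 in TRPM7 shRNA cells. Of 12 mesenchymal markers, ANXA1 rose and VIM fell in SH-SY5Y. The median level was 3.70 and 3.74 in control and 4.22 and 4.34 in TRPM7 shRNA cells. Only 6 of the 12 were detected on each SH-SY5Y array. That median therefore lies between a background reading and a dim detected gene, and it does not describe a shift of the list. The summed deposited signal of the neuroblastic markers was 31843 and 24791 in SH-SY5Y control and 26284 and 25866 in TRPM7 shRNA cells. In SH-EP2, where MAOA rose, 1 of 11 neuroblastic markers was called higher (CHGB) and 2 lower (GATA2, and CHGA, which was undetected), and of 12 mesenchymal markers CD44 rose by 0.77 and COL1A1 fell by 0.56. The median level of the mesenchymal markers was 11.63 and 11.86 in SH-EP2 control and 12.06 and 11.99 in TRPM7 shRNA cells. None of the 8 Schwann cell markers was called in either line. The part of these markers in the DBH and MAOA results was not tested.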

How the data were processed

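RNA of 2 neuroblastoma lines was measured on 8 Illumina HumanHT-12 v4 arrays. The authors deposited probe intensities exported from GenomeStudio 2011.1, not normalized, and a detection p-value for each probe and array. Here the intensities were background-corrected with the RMA normal-exponential model, quantile-normalized over the 8 arrays and converted to log2, in R 4.3.3 with limma 3.58.1. A linear model with 4 groups was fitted to all 47322 probes (lmFit, then eBayes with an intensity trend), and two-sided p-values were adjusted by the Benjamini-Hochberg method across the whole table, with a threshold of 0.05. A detection p under 0.05 counted as detected. The number of arrays limits the precision. The script was tested on simulated data. The members and lists were chosen with earlier results of these data known, and some genes of the lists are not reported here. Named from the lists were called genes detected on both arrays of the brighter group, at most 4 per list and line. Alternatives covered background correction, scaling, a detection filter, the variance trend, single-line fits, a replicate block, probe averaging and omission of each array; the crossed block was chosen after seeing the data. The labels do not say whether replicate numbers pair the samples, and the main fit did not use them as pairs. Promoter sequences were RefSeq's, GRCh38.p14, with motifs searched on both strands.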

Additional observations from a re-analysis of the deposited data

Results flagged for a closer look

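DBH was marked because the contrast between the lines passed its test: the log2 fold change in SH-SY5Y minus that in SH-EP2 was -1.19 ± 0.26 (adjusted p = 0.0216, limma). DBH was not detected on any SH-EP2 array, so no response could be measured there, the contrast restates the fall in SH-SY5Y, and the call was lost in 7 of 17 alternatives.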

How the results depend on the processing

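With 2 arrays a group, single calls near the threshold rest on the estimated spread, and dim probes on the background model. In SH-SY5Y the count of member probes called (1) became 3 with normexp and an offset of 50, 4 with no background correction and 0 without the intensity trend. In SH-EP2 it (1) became 0 with no background correction and 0 without the trend. For the difference between the lines it (1) became 0 with median scaling, 0 without the trend and 2 with the crossed block, and ranged from 0 to 2 when single arrays were left out. Between the control groups it stayed at 9 or 10 of 13 probes, and with probes averaged 7 of 9 genes were called. Leaving out single arrays left the count at 1 in each shRNA comparison. The DBH call of the difference was lost without any single SH-SY5Y array and without SH-EP2 TRPM7 shRNA replicate 1, and MAOA gained one without SH-EP2 control replicate 1. Reversed values were GCH1 in SH-EP2, 0.18 with probes averaged and 0.093 without SH-EP2 control replicate 1 (range -0.41 to 0.093 with single arrays left out), and PRKACB in SH-SY5Y, 0.010 with probes averaged. Without the trend, probes called fell from 999 to 64 in SH-SY5Y and from 1429 to 100 in SH-EP2, and this was the only alternative to lose the QDPR call in SH-SY5Y and the DNAJC12 call in SH-EP2.

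The replicate block left the member counts at 1, 1, 1 and 9, changed the DBH adjusted p to 0.00145, and moved the count of all probes called in SH-SY5Y from 999 to 801. It lost the SLC29A4 call in SH-SY5Y. Correlations of same-numbered deviations were -0.11 in SH-SY5Y and -0.004 in SH-EP2. With the SH-SY5Y numbers crossed, 1420 probes were called in SH-SY5Y and 1873 in SH-EP2.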
